A study of Mus musculus with 6 samples.

Results

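Polycomb proteins keep genes silent through 2 families of chromatin complexes. Polycomb repressive complex 2 (PRC2) methylates histone H3 on lysine 27 through its catalytic subunit EZH2, held by EED and SUZ12, and JARID2 helps the complex find chromatin. Polycomb repressive complex 1 (PRC1) ubiquitinates histone H2A through RNF2 (RING1B) or RING1 (RING1A), each paired with 1 of the PCGF proteins, which decide the kind of PRC1: BMI1 (PCGF4) belongs to canonical PRC1, PCGF1 to the variant complex that KDM2B brings to unmethylated CpG DNA, and PCGF6 to the variant complex with MGA and L3MBTL2. In mouse eggs and zygotes these marks are inherited from the mother and hold a small class of imprinted genes silent on the maternal chromosomes. The genes described here are Ezh2, Eed, Suz12, Jarid2, Rnf2, Ring1, Bmi1, Pcgf1, Pcgf6 and Kdm2b. They were chosen by symbol, and all 10 were among the 25731 genes of the expression table.

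Their transcripts were measured in mouse zygotes 10 h after microinjection, at the pronuclear stage, in 3 pools of ZP3 Trim-away zygotes and 3 pools of buffer control zygotes with 13 zygotes in each pool. In Trim-away a cell is given an antibody against a protein together with the antibody receptor and ubiquitin ligase TRIM21, which sends the antibody and its target to the proteasome. All zygotes were wild-type, from B6C3F1 females mated to CD1 males, and 15 h after hCG all received mCherry-Trim21 mRNA (0.2 mg/mL) with a fluorescent dextran (0.02 mg/mL). The ZP3 Trim-away zygotes received anti-ZP3 antibody with it (1 mg/mL), and the buffer control zygotes the antibody's buffer, without any antibody, so that degradation of ZP3 and the presence of an antibody cannot be told apart in this design. The labels number the pools without saying whether they came from separate collections, so that the p-values cover only pool-to-pool spread, which may be technical. In a pool, fewer intact zygotes and less RNA per zygote cannot be told apart.

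Library totals were 15291000 to 15746633 reads in ZP3 Trim-away and 17378251 to 20005724 reads in the buffer controls. The deposited columns of control replicates 2 and 3 behaved as means with control replicate 1 and were separated before any comparison. Zp3 mRNA, whose protein is the target, had 46.5, 58.9 and 52.7 RPKM in ZP3 Trim-away and 31.3, 55.6 and 39.9 RPKM in the controls (log2 fold change 0.34 ± 0.21, limma adjusted p = 0.411), which does not check the loss of the protein. All 10 oocyte and zygote markers listed were above 0 in every library, with a summed level of 8617 to 10208 RPKM (reads scaled by exon length in kilobases and by library size) in ZP3 Trim-away and 6465 to 7896 RPKM in the controls. The cumulus and granulosa markers summed to 13.5 to 18.7 RPKM in ZP3 Trim-away and 8.44 to 17.1 RPKM in the controls, over the 9 of 10 that the table holds, with Fshr, Foxl2, Amhr2 and Cyp11a1 at 0 in all controls. Reads of Trim21, the injected transcript, made up 9.12% to 10.99% of each library in ZP3 Trim-away and 14.6% to 18.1% in the controls. Of the 9965 genes averaging 1 RPKM or more, 63 (0.632%) differed at an adjusted p of 0.05 in limma (0.592% higher and 0.0401% lower in ZP3 Trim-away), and the median log2 fold change of all genes lay at 0.22, so that a gene at 0 stood below most others. Trim21 was among the genes called lower (log2 fold change -0.73 ± 0.10, limma adjusted p = 0.0274), and its groups did not overlap. Log2 fold changes are ZP3 Trim-away minus buffer control on the log2(RPKM + 1) scale. The 3 other scalings tried were median ratio scaling, which moved the median of all genes to 0.066, quantile normalization, and rescaling with Trim21 left out. The last divided each library by a factor from its summed RPKM over all genes but Trim21.

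Of the 10 Polycomb genes, 9 reached 1 RPKM and were tested, and none of them passed an adjusted p of 0.05 (3 had an unadjusted p under 0.05, as did 19.5% of all genes). The smallest adjusted p belonged to Pcgf1 (0.0515). The median log2 fold change of the 9 genes was 0.12, with 6 positive and 3 negative values, against 0.22 for all genes, of which 67.3% were positive. In 3 of the 9 genes the libraries of the groups did not overlap, Pcgf1 higher and Ezh2 and Suz12 lower in ZP3 Trim-away. Over all genes tested 26.7% did not overlap, 20.3% higher and 6.34% lower. These shares include genes that are not independent and carry no test.

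**Figure D1:**
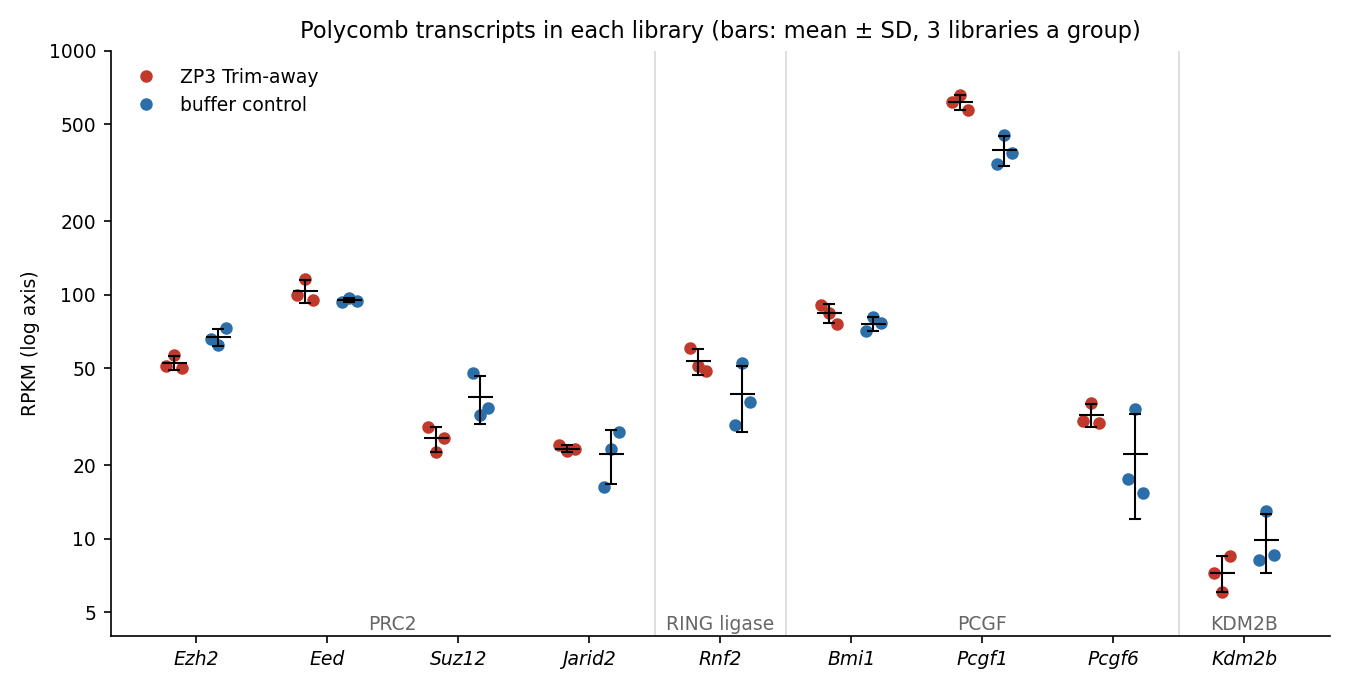
RPKM on a log axis of the 9 tested Polycomb genes in each of 3 ZP3 Trim-away and 3 buffer control libraries, with points for libraries and bars for the mean ± SD. Pcgf1 stands above the others at 572 to 660.4 RPKM in ZP3 Trim-away and 342 to 450.1 RPKM in the controls, and the groups are apart in Pcgf1, Ezh2 and Suz12 only.

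The zygote's mRNA at this stage is mostly stored maternal mRNA, whose poly(A) tail length is set through elements near the 3′ end, and the library kit primes on the tail. The ends of the annotated transcripts (GENCODE release M21, GRCm38, 1 transcript per gene) are therefore shown for Pcgf1 and Ezh2, whose groups did not overlap, and for 2 genes with a cytoplasmic polyadenylation element. Suz12, whose groups did not overlap either, and Eed, which also holds the element, are not shown. The last 100 bases were searched on the transcript's strand for the poly(A) signal, AATAAA or ATTAAA, and for the element, TTTTAT or TTTTAAT, which may overlap the signal. Capitals mark them in windows of 30 bases.
Pcgf1, chr6:83080826-83080855, plus strand: attttttgaAATAAAtgcttttaaaaagca
Ezh2, chr6:47530144-47530173, minus strand: aaccAATAAAcatactggcatagtgtttgc
Rnf2, chr1:151469433-151469462, minus strand: gaatgtatgtgtTTTTATctgtctatggga
Bmi1, chr2:18686600-18686629, plus strand: tttgtcTTTTAATAAAacaacagaaagatg

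A poly(A) signal was found in 8 of the 10 genes, all except Rnf2 and Kdm2b, and in 81.6% of 8123 tested protein-coding genes. The cytoplasmic polyadenylation element was found in 3 of the 10, Eed, Rnf2 and Bmi1, and in 20.5% of all. In Bmi1 it overlapped the signal, in Rnf2 it began 46 bases from the annotated end, and in Eed 67 bases from it. Neither Pcgf1 nor Ezh2 held it in these 100 bases. Genes with the element had a median log2 fold change of 0.12 and genes without it 0.21. The ends that zygotes use were not measured here, and a match is a description of the annotated sequence only.

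Among the PRC2 core genes described here, Ezh2 and Suz12 stood lower in every ZP3 Trim-away library than in any control, and Eed did not. Ezh2 (ENSMUSG00000029687), the methyltransferase gene, had 50.9, 56.5 and 50.1 RPKM in ZP3 Trim-away and 65.7, 62.1 and 73.1 RPKM in the controls. The means were 52.5 ± 3.49 RPKM in ZP3 Trim-away and 67.0 ± 5.60 RPKM in the controls (SD, n = 3 each), with a log2 fold change of -0.34 ± 0.13 (SE, limma adjusted p = 0.201). From 5113 to 5934 reads per library in ZP3 Trim-away and 8143 to 8485 reads in the controls, the highest ZP3 Trim-away library lay below the lowest control. The 3 other scalings gave -0.54 to -0.53 (limma adjusted p = 0.107 to 0.111), and the deposited columns gave a call for Ezh2 (-0.33, limma adjusted p = 0.0206). In those columns control replicate 1 enters every control value, and 37.3% of all genes passed.

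Suz12 (ENSMUSG00000017548), whose protein holds the PRC2 core together, had 28.6, 22.6 and 25.9 RPKM in ZP3 Trim-away and 47.9, 32.1 and 34.3 RPKM in the controls. Its means were 25.7 ± 2.99 RPKM in ZP3 Trim-away and 38.1 ± 8.54 RPKM in the controls (SD, n = 3 each), and its log2 fold change of -0.53 ± 0.19 (SE, limma adjusted p = 0.181) was the lowest of the 9 genes. Control replicate 1 stood apart from the other controls, and without it the log2 fold change was -0.36. With the columns as deposited, in which that library enters every control value, Suz12 passed (-0.72, limma adjusted p = 0.00267).

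Eed (ENSMUSG00000030619), which encodes the subunit that reads methylated lysine 27, was more abundant per exon length than Ezh2 and Suz12. It had 99.7, 116 and 95.0 RPKM in ZP3 Trim-away and 93.3, 97.2 and 94.6 RPKM in the controls. The groups overlapped, with an SD of 11.2 RPKM in ZP3 Trim-away and 1.98 RPKM in the controls (n = 3 each). The log2 fold change was 0.12 ± 0.12 (SE, limma adjusted p = 0.632), and it turned negative under all 3 other scalings (-0.069 to -0.061) and with the exon length trend removed (-0.096).

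Jarid2 (ENSMUSG00000038518), which encodes a substrate-binding cofactor of PRC2, had 24.2, 22.8 and 23.3 RPKM in ZP3 Trim-away and 16.3, 23.3 and 27.3 RPKM in the controls. All ZP3 Trim-away libraries lay inside the range of the controls. The log2 fold change was 0.094 ± 0.21 (SE, limma adjusted p = 0.839), and it was negative with all 3 other scalings (-0.088 to -0.060) and without control replicate 1 (-0.11).

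Within a library, ratios between transcripts do not depend on the library's scaling, but a trend of fold change with exon length may remain in them. Eed has 3828 bases of exon, Suz12 4945 and Ezh2 6678. With the exon length trend removed, the log2 fold changes were -0.096 for Eed, -0.69 for Suz12 and -0.41 for Ezh2. Eed stood at 1.96, 2.06 and 1.90 times Ezh2 in ZP3 Trim-away and at 1.42, 1.56 and 1.29 times Ezh2 in the controls, without overlap. The ratio of Eed to Suz12 was 3.48, 5.14 and 3.66 in ZP3 Trim-away and 1.95, 3.03 and 2.76 in the controls, also without overlap. The ratio of Ezh2 to Suz12 did overlap, at 1.78, 2.50 and 1.93 in ZP3 Trim-away and 1.37, 1.94 and 2.13 in the controls. The transcripts of Eed, Ezh2 and Suz12 thus held that order in every library, and their sum was 182 ± 12.5 RPKM in ZP3 Trim-away and 200.1 ± 7.86 RPKM in the controls (SD, n = 3 each). Of 11 such ratios between Polycomb genes, 4 did not overlap between the groups (these 2 and those of Pcgf1 to Bmi1 and to Kdm2b), against 21.8% of all pairs of tested genes above 0 in the 6 libraries, and no test was made on them.

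**Figure D2:**
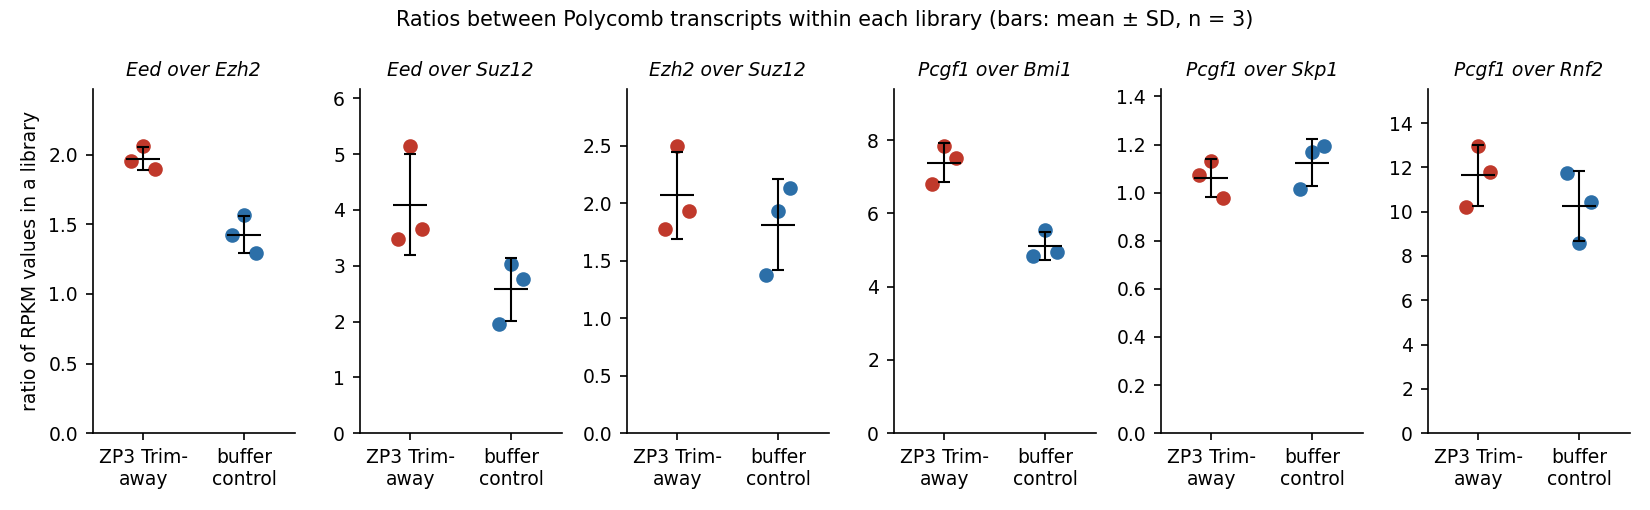
Ratio of the RPKM values of a pair of Polycomb genes within each library, for 6 pairs, with points for the 3 ZP3 Trim-away and 3 buffer control libraries and bars for the mean ± SD. Eed over Ezh2 (1.97 ± 0.0823 in ZP3 Trim-away and 1.43 ± 0.135 in the controls), Eed over Suz12 and Pcgf1 over Bmi1 do not overlap between the groups, whereas Ezh2 over Suz12, Pcgf1 over Skp1 and Pcgf1 over Rnf2 do.

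The 2 RING ligase genes, which encode the catalytic subunits of PRC1, differed from each other far more than the groups did. Rnf2 (ENSMUSG00000026484) had 60.6, 51.0 and 48.6 RPKM in ZP3 Trim-away and 29.2, 52.3 and 36.4 RPKM in the controls. Control replicate 2 lay within the range of ZP3 Trim-away, and the other controls lay below it. The log2 fold change was 0.47 ± 0.22 (SE, limma adjusted p = 0.279), or 0.69 without control replicate 2 (limma adjusted p = 0.0720) and 0.28 without control replicate 1. It was 0.27 to 0.28 with the 3 other scalings and 0.27 with the exon length trend removed, and the deposited columns gave a call for Rnf2 (0.63, limma adjusted p = 0.00779).

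Ring1 (ENSMUSG00000024325), the paralogue of Rnf2, was at or close to the limit of detection. It had 1, 5 and 8 reads in ZP3 Trim-away (0.0196, 0.0980 and 0.161 RPKM) and 0 reads in each control, where a count of 0 allows up to 3 reads, or 0.0462 to 0.0532 RPKM. ZP3 Trim-away replicate 1 lay below that limit as well, and Ring1 was not tested. More genes were above 0 in the ZP3 Trim-away libraries (18402 to 19851 genes with an exon length) than in the controls (13025 to 14269), and the part of this difference in the Ring1 values was not tested. RING transcripts of these zygotes were thus almost wholly Rnf2 in both groups.

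Of the PCGF genes, Pcgf1 was the most abundant by far, and it was the Polycomb gene nearest to the threshold. Pcgf1 (ENSMUSG00000069678) had 618, 660.4 and 572 RPKM in ZP3 Trim-away and 342, 450.1 and 379.9 RPKM in the controls, from 14431 to 17125 reads in ZP3 Trim-away and 10480 to 14848 reads in the controls. The lowest ZP3 Trim-away library lay above the highest control. The means were 617 ± 44.0 RPKM in ZP3 Trim-away and 391 ± 54.7 RPKM in the controls (SD, n = 3 each), a ratio of 1.58, with a log2 fold change of 0.66 ± 0.12 (SE, limma adjusted p = 0.0515). Averaged over all libraries, Pcgf1 lay above 99.5% of the genes tested.

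The Pcgf1 comparison did not pass in the main setting and depended on how the genes and libraries were chosen. It passed when only genes averaging 10 RPKM or more were kept (0.66, limma adjusted p = 0.0243), of which 10.6% passed (9.02% higher and 1.62% lower), without control replicate 2 (0.77, limma adjusted p = 0.0329), where 2.8% of all genes passed, and in the deposited columns (0.75, limma adjusted p = 0.000635). Pcgf1 is short, with 1649 bases of exon against a median of 3626 bases over all genes, and shorter genes had the higher log2 fold changes in general (Spearman's rho = -0.30 between exon length and log2 fold change over 9858 genes, not independent of each other). With that trend removed the log2 fold change of Pcgf1 was 0.29 (limma adjusted p = 0.214), and with the 3 other scalings it was 0.43 to 0.48.

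Bmi1 (ENSMUSG00000026739), a PCGF gene of canonical PRC1, came next in abundance, with 90.9, 84.3 and 76.1 RPKM in ZP3 Trim-away and 70.8, 81.0 and 76.7 RPKM in the controls. The groups overlapped, and the log2 fold change was 0.13 ± 0.13 (SE, limma adjusted p = 0.595), negative with all 3 other scalings (-0.095 to -0.049) and with the exon length trend removed (-0.073).

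Pcgf6 (ENSMUSG00000025050), of the variant complex with MGA and L3MBTL2, had 30.5, 36.1 and 29.9 RPKM in ZP3 Trim-away and 17.5, 34.0 and 15.4 RPKM in the controls. As with Rnf2, control replicate 2 lay within the ZP3 Trim-away range and the other controls were lower. The log2 fold change was 0.59 ± 0.28 (SE, limma adjusted p = 0.291), which was 0.93 without control replicate 2 (limma adjusted p = 0.0451) and 0.38 without control replicate 3, and the deposited columns gave a call for Pcgf6 (0.69, limma adjusted p = 0.0122).

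The remaining PCGF genes were low. Pcgf3 had 4.75, 2.63 and 3.87 RPKM in ZP3 Trim-away and 4.33, 1.75 and 4.09 RPKM in the controls (log2 fold change 0.15 ± 0.36, limma adjusted p = 0.857, negative with quantile normalization). Pcgf5 had 0.121 to 0.217 RPKM in ZP3 Trim-away and 0.164 to 0.452 RPKM in the controls and was not tested. Pcgf2 was not analysed here and does not enter the shares that follow. Pcgf1 made up 83.0%, 84.3% and 83.9% of the summed RPKM of Bmi1, Pcgf1, Pcgf3, Pcgf5 and Pcgf6 in ZP3 Trim-away and 78.6%, 79.3% and 79.8% in the controls. Bmi1 made up 12.2%, 10.8% and 11.2% in ZP3 Trim-away and 16.3%, 14.3% and 16.1% in the controls. Pcgf1 stood at 7.38 ± 0.528 times Bmi1 in ZP3 Trim-away and 5.12 ± 0.386 times in the controls (SD, n = 3 each), and these ratios did not overlap. Bmi1 has 3974 bases of exon against 1649 in Pcgf1. With the exon length trend removed, the log2 fold changes were 0.29 for Pcgf1 and -0.073 for Bmi1.

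Kdm2b (ENSMUSG00000029475), which encodes the CpG-binding subunit of the PCGF1 complex and a histone demethylase, was the least abundant of the tested members, and unlike that of Pcgf1 its mean lay lower in ZP3 Trim-away. It had 7.22, 6.06 and 8.50 RPKM in ZP3 Trim-away and 8.17, 13.0 and 8.59 RPKM in the controls, which overlapped. The log2 fold change was -0.39 ± 0.26 (SE, limma adjusted p = 0.449), and it was -0.19 without control replicate 2. The ratio of Pcgf1 to Kdm2b was 85.7, 109 and 67.4 in ZP3 Trim-away and 41.9, 34.7 and 44.2 in the controls, without overlap. Kdm2b has 10869 bases of exon against 1649 in Pcgf1. With the exon length trend removed, the log2 fold changes were 0.29 for Pcgf1 and -0.35 for Kdm2b. Kdm2b shares 5.77% of its exon bases with Rnf34 on the opposite strand, and counting is not stated to use strand. The exons of Rnf2, Ezh2, Suz12 and Eed overlap those of opposite genes by 2.61% to 6.82%.

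**Figure D3:**
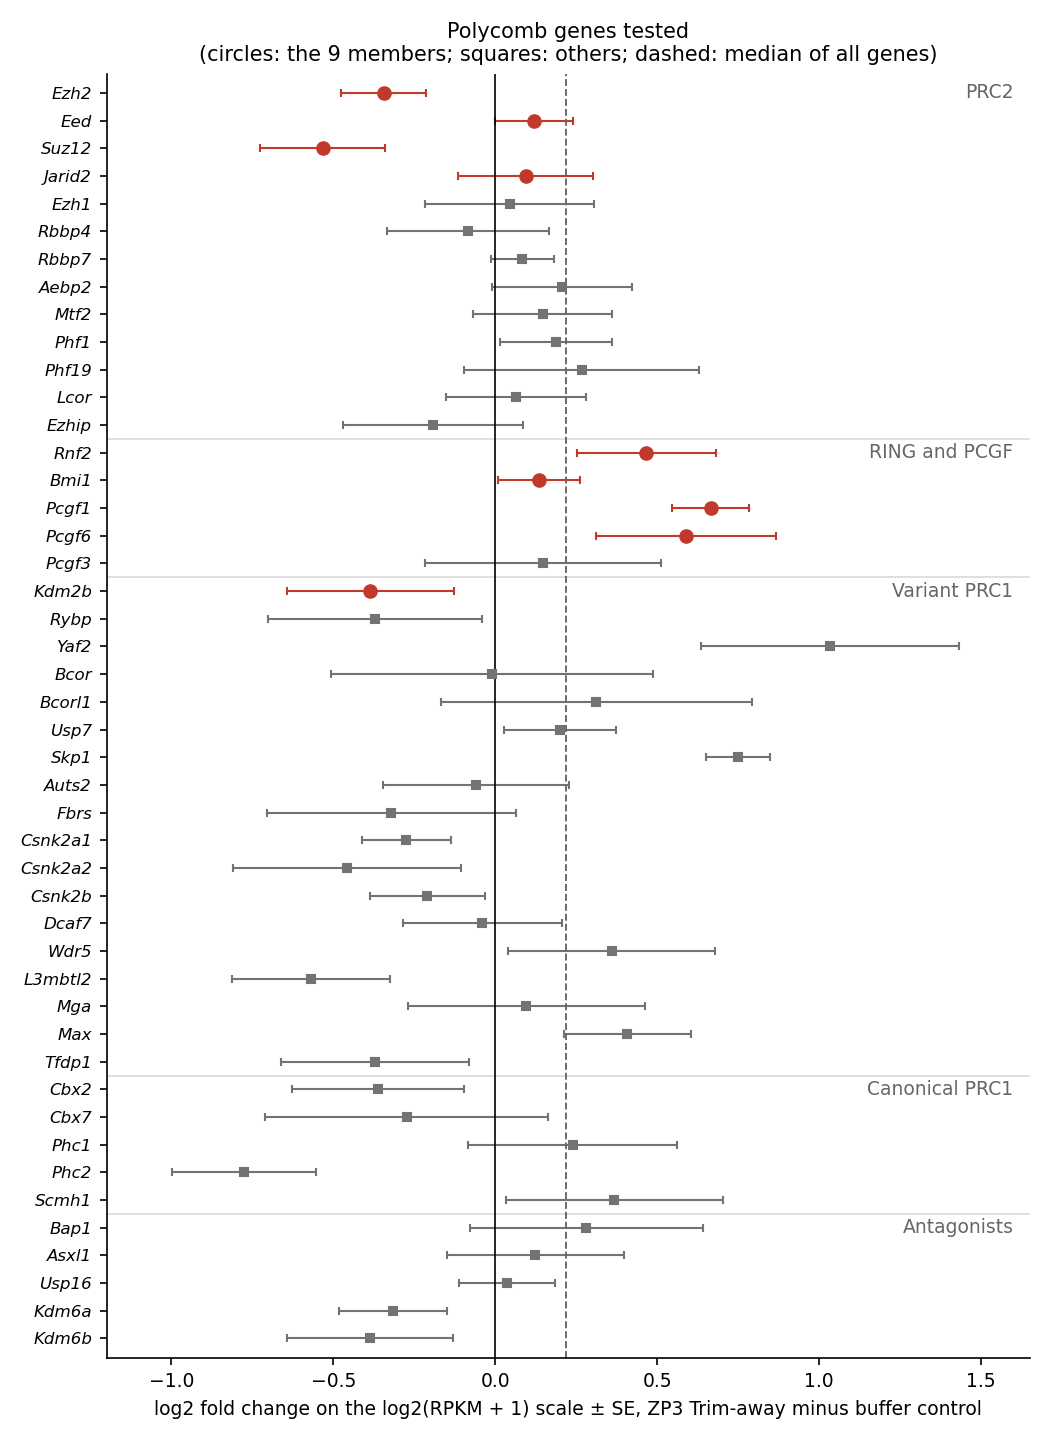
Log2 fold change (ZP3 Trim-away minus buffer control, log2(RPKM + 1) scale) ± SE of the Polycomb genes and partners tested, with circles for the 9 members, squares for other genes of the complexes and a dashed line at the median of all genes (0.22). Pcgf1, Pcgf6 and Rnf2 lie right of the dashed line and Ezh2, Suz12 and Kdm2b left of 0, with the same sign in each scaling tried, while Eed, Jarid2 and Bmi1 lie near 0 and turned to negative values with the other scalings. Of the genes drawn, Skp1 alone passed the test (0.75 ± 0.10).

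The other subunits of the Polycomb complexes and their antagonists were read from a list of 47 genes, of which 45 were in the table and 37 were tested. Of the 37, 1 rose, none fell and 36 did not pass, with a median log2 fold change of 0.044, and 0.632% of all genes passed in either direction. In 2 of them the groups did not overlap with ZP3 Trim-away higher and in 5 with ZP3 Trim-away lower, against 20.3% and 6.34% of all genes. Their median exon length was 6487 bases, longer than that of all genes.

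The gene that rose was Skp1, which encodes the SCF ubiquitin ligase subunit that is also part of the PCGF1 complex. It had 576, 584 and 586 RPKM in ZP3 Trim-away and 337, 385 and 319 RPKM in the controls (log2 fold change 0.75 ± 0.10, limma adjusted p = 0.0249), and the ratio of Pcgf1 to Skp1 was 1.06 ± 0.0784 in ZP3 Trim-away and 1.13 ± 0.0963 in the controls (SD, n = 3 each), which overlapped. The Skp1 call was lost without any 1 ZP3 Trim-away library (limma adjusted p = 0.184, 0.213 and 0.200), and with all 3 other scalings (0.0647 to 0.0750), the exon length trend removed (0.107), no filter (0.141) or a constant prior (0.163). Over all genes tested, limma called 0 without any 1 ZP3 Trim-away library, and 0 with no filter.

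Yaf2, which encodes an adaptor that bridges RNF2 to variant PRC1, was the other gene higher without overlap, at 5.49, 7.20 and 4.54 RPKM in ZP3 Trim-away and 4.03, 2.56 and 0.922 RPKM in the controls (log2 fold change 1.03 ± 0.40, limma adjusted p = 0.203). Rybp, its paralogue, was lower without overlap, at 0.978, 0.845 and 1.49 RPKM in ZP3 Trim-away and 1.68, 1.85 and 1.58 RPKM in the controls (-0.37 ± 0.33, limma adjusted p = 0.571), and a pseudogene copy of it, Rybp-ps, may share its reads. L3mbtl2, of the PCGF6 complex, was also lower without overlap, at 4.59, 5.37 and 6.48 RPKM in ZP3 Trim-away and 9.77, 7.31 and 8.72 RPKM in the controls (-0.57 ± 0.24, limma adjusted p = 0.247). L3mbtl2 shares 17.2% of its exon bases with Chadl on the opposite strand. Yaf2, Rybp and L3mbtl2, and Kdm6b in the sentences on demethylases, were named after their values were seen. Csnk2a1, a casein kinase 2 subunit gene of the PCGF5 complex, had 52.0, 45.2 and 56.9 RPKM in ZP3 Trim-away and 60.8, 61.2 and 64.2 RPKM in the controls (-0.27 ± 0.14, limma adjusted p = 0.311, and -0.47 to -0.46 with the 3 other scalings), again without overlap, and it too has pseudogene copies that may share reads.

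In canonical PRC1, Cbx2 was the chromobox gene with the highest level, at 19.8, 16.9 and 21.7 RPKM in ZP3 Trim-away and 35.3, 27.2 and 16.6 RPKM in the controls (log2 fold change -0.36 ± 0.27, limma adjusted p = 0.492). Its groups overlapped through control replicate 3, and the log2 fold change was -0.65 without that library (limma adjusted p = 0.1097) and -0.13 without control replicate 1. Phc2, which encodes a polyhomeotic subunit that clusters PRC1, had 6.89, 7.46 and 6.97 RPKM in ZP3 Trim-away and 10.3, 14.3 and 14.5 RPKM in the controls, lower without overlap (-0.78 ± 0.22, limma adjusted p = 0.111). The deposited columns, whose controls are not independent of each other and where 37.3% of all genes passed, gave a call for both (-0.63 and -0.64, limma adjusted p = 0.00929 and 0.00978).

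Around PRC2, the most abundant transcripts were not those of Ezh2, Eed and Suz12. Rbbp7, a histone-binding subunit gene, had 1383, 1407 and 1249.6 RPKM in ZP3 Trim-away and 1153, 1279 and 1386 RPKM in the controls (log2 fold change 0.084 ± 0.097, limma adjusted p = 0.674, negative with median ratio scaling, with Trim21 left out and with the exon length trend removed). Ezhip, which encodes a gonadal inhibitor of PRC2, had 1063, 824 and 745 RPKM in ZP3 Trim-away and 634, 1018 and 1510.2 RPKM in the controls (-0.19 ± 0.28, limma adjusted p = 0.741). It stood at 14.6 to 20.9 times Ezh2 in ZP3 Trim-away and 9.65 to 20.7 times in the controls, and the control range covered that of ZP3 Trim-away for its level. Its log2 fold change was 0.11 without control replicate 3, -0.51 without control replicate 1 and -0.52 with the exon length trend removed. Ezh1, the second methyltransferase gene, had 16.1, 11.4 and 12.1 RPKM in ZP3 Trim-away and 18.0, 10.3 and 10.9 RPKM in the controls (0.044 ± 0.26, limma adjusted p = 0.945, negative with all 3 other scalings). Ezh2 stood at 4.08 ± 0.892 times Ezh1 in ZP3 Trim-away and 5.47 ± 1.61 times in the controls (SD, n = 3 each). Phf1, an accessory subunit gene, had 31.3, 24.1 and 26.8 RPKM in ZP3 Trim-away and 22.0, 22.7 and 26.9 RPKM in the controls (0.19 ± 0.17, limma adjusted p = 0.583), and 39.3% of its exon bases lie opposite Cuta.

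The enzymes that remove Polycomb marks gave no call. Usp16, an H2A deubiquitinase gene, had 29.2, 32.3 and 28.6 RPKM in ZP3 Trim-away and 28.7, 31.4 and 27.6 RPKM in the controls (log2 fold change 0.035 ± 0.15, limma adjusted p = 0.920, negative with all 3 other scalings). Kdm6a, a lysine 27 demethylase gene, had 38.8, 34.7 and 41.4 RPKM in ZP3 Trim-away and 46.9, 40.7 and 57.3 RPKM in the controls (-0.32 ± 0.17, limma adjusted p = 0.340, and -0.50 with each of the 3 other scalings), with overlap. Kdm6b, the related demethylase gene, had 6.69, 5.61 and 6.77 RPKM in ZP3 Trim-away and 11.5, 7.56 and 7.23 RPKM in the controls, lower without overlap (-0.39 ± 0.26, limma adjusted p = 0.446).

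Most listed genes that Polycomb marks are known to silence averaged under 1 RPKM and were not tested. So did most genes of the table, of which 9965 of 25731 averaged 1 RPKM or more. Of 6 genes imprinted through maternal methylation of lysine 27, 5 were below that level and Gab1 was tested, at 1.45, 0.751 and 2.19 RPKM in ZP3 Trim-away and 0.0318, 0 and 3.42 RPKM in the controls (log2 fold change 0.53 ± 0.61, limma adjusted p = 0.673). Control replicate 3 held most of its control reads, and the log2 fold change was 1.24 without that library (limma adjusted p = 0.122), 0.16 without control replicate 2, 0.19 without control replicate 1, -0.12 with quantile normalization and 4.09 in limma voom. Sfmbt2 had 0.264, 0.383 and 0 RPKM in ZP3 Trim-away and 1.01, 0 and 0 RPKM in the controls. Slc38a4, named after its values were seen, had 0.0745, 0.209 and 1.15 RPKM in ZP3 Trim-away, from 5, 14 and 75 reads, and was at 0 in each control. More genes were above 0 in the ZP3 Trim-away libraries than in the controls, and the part of this difference in the Slc38a4 values was not tested. The groups of Jade1, Smoc1 and Xist, the rest of this list, overlapped, at no more than 0.210 RPKM in any library. Of 23 developmental regulators known as Polycomb targets, 13 were in the table, 11 averaged under 1 RPKM and 2 were tested. Gata4, an endoderm and heart factor, had 2.18, 1.01 and 2.48 RPKM in ZP3 Trim-away and 6.95, 0.474 and 2.42 RPKM in the controls (-0.28 ± 0.59, limma adjusted p = 0.830), which was 0.33 without control replicate 1, -0.89 without control replicate 2 and -1.09 in the deposited columns, where Gata4 was called (limma adjusted p = 0.0150). Pax2, a kidney and eye factor, had 0.751, 0.212 and 1.58 RPKM in ZP3 Trim-away and 1.55, 2.14 and 2.15 RPKM in the controls (-0.73 ± 0.39, limma adjusted p = 0.343).

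Libraries of the control group lay further apart than those of ZP3 Trim-away for most Polycomb genes, as for most genes. On the log2 scale the median SD was 0.15 in ZP3 Trim-away and 0.30 in the controls for the 9 genes, and 0.20 in ZP3 Trim-away and 0.44 in the controls for all genes. The SD was larger in the controls for 7 of the 9, the exceptions being Eed and Bmi1. Pcgf6 had the widest controls (0.59, against 0.15 in ZP3 Trim-away) and Eed the tightest (0.030, against 0.15 in ZP3 Trim-away). The summed level of all 10 genes was 999 ± 64.1 RPKM in ZP3 Trim-away and 761 ± 78.1 RPKM in the controls, and without Pcgf1 it was 382 ± 21.3 RPKM in ZP3 Trim-away and 370.1 ± 23.4 RPKM in the controls (SD, n = 3 each).

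The genes with the pattern most like that of Pcgf1 over the 6 libraries, by Pearson's correlation of log2(RPKM + 1), were Gm44828 (r = 0.997), Cript (r = 0.996) and Rgs2 (r = 0.995). The correlations share the same libraries and the same separation of the groups, and 685 of the other 9964 genes had an r over 0.9. Cript had 146, 159 and 143 RPKM in ZP3 Trim-away and 97.2, 120.1 and 108 RPKM in the controls. As in Pcgf1, replicate 2 was the highest of each group and control replicate 1 the lowest of all.

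**Figure D4:**
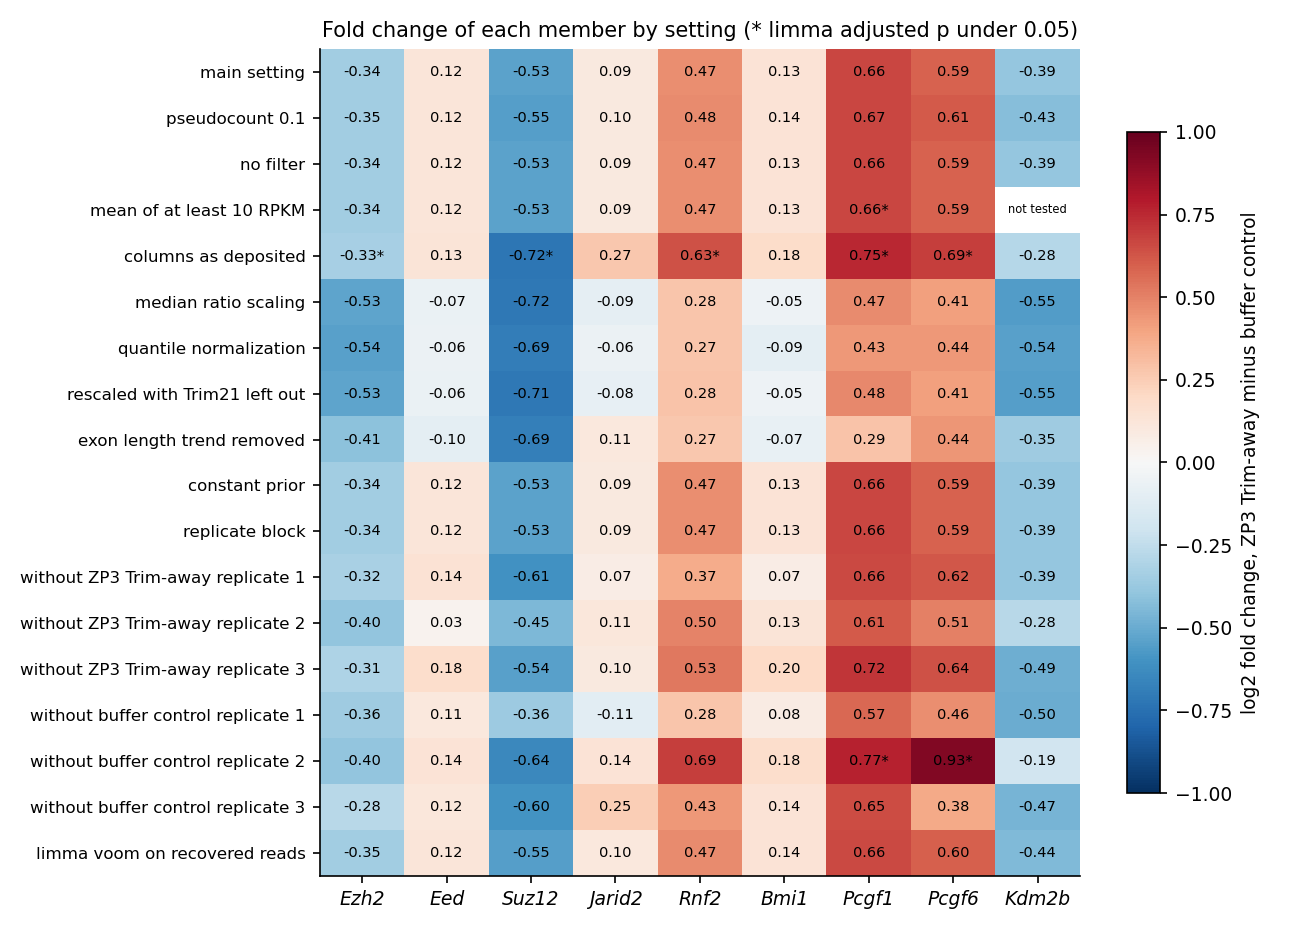
Log2 fold change (ZP3 Trim-away minus buffer control) of the 9 members in the main setting and in 17 others, with colour for direction and size and an asterisk for a limma adjusted p under 0.05. Pcgf1, Pcgf6 and Rnf2 are positive and Ezh2, Suz12 and Kdm2b negative in every setting in which they were tested, while Eed, Jarid2 and Bmi1 turn with the scaling, and most asterisks belong to the columns as deposited.

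With the columns as deposited, 5 of the 9 genes passed (Pcgf1, Pcgf6 and Rnf2 higher, Ezh2 and Suz12 lower), where 37.3% of all genes passed (25.5% higher and 11.8% lower). In those columns the controls share control replicate 1 and are not independent of each other. None of the 9 passed without control replicate 1 (1.4% of all genes passed), without control replicate 3 (1.32%) or in limma voom on the recovered reads (0.0632%). In these settings 2, 2 and 3 of the 9 had an unadjusted limma p under 0.05. Over all genes tested, 2103 of 9965, 2375 of 9965 and 1828 of 9500 did, in the same order.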

How the data were processed

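RNA was measured in 6 libraries, 3 of ZP3 Trim-away and 3 of buffer control zygotes. Per the labels and the methods of the study, the authors checked reads with FastQC 0.11.9, trimmed them with Trimmomatic, aligned them with HISAT2, sorted them with SAMtools, counted them per gene with htseq-count and deposited RPKM values. The labels name build GRCm39 and the methods GRCm38.

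In the deposited RPKM table control replicates 2 and 3 were never below 0.5 times control replicate 1 (0 of 13202 genes), and were exactly 0.5 times it in 2059 and 2090 genes, which no other pair of columns showed. Each was therefore taken as a mean with replicate 1, and 2 times the column minus replicate 1 was used. With exon lengths of GENCODE M21 (24959 genes) and a fitted library total, 95.0% to 96.0% of values lay within 0.01 of a whole read, against 9.02% to 9.60% for both columns as deposited, at the totals of the separated libraries.

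Groups were compared with limma 3.58.1 (R 4.3.3) on log2(RPKM + 1), trended prior, two-sided, for genes averaging 1 RPKM or more over the 6 libraries, with Benjamini-Hochberg adjustment at 0.05 over all of them. Such fold changes understate the change of low genes. The fit was tested on simulated data with changes larger than that of any member and the same spread in both groups. Smaller changes and the wider spread of the controls were not covered. Alternatives were other pseudocounts, filters, scalings and priors, the columns as deposited, exon length, a replicate block and each library left out. limma voom on the recovered reads was chosen after seeing the data. Limits of a count of 0 cover counting error only.

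All 10 members are named. From the other Polycomb genes, each role group gave its 2 most abundant genes, the one with the lowest p and any that passed. Members and lists were chosen with earlier results of these data known. Python 3.11.15 with pandas 2.3.3, numpy 2.4.6 and matplotlib 3.10.9 was used.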

Additional observations from a re-analysis of the deposited data

How the results depend on the processing

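Replicate numbers are shared by the groups, but same-numbered libraries did not deviate together (r = -0.061, 0.019 and -0.053), so they were not taken as pairs. With the replicate block limma called 0 genes (1733 at an unadjusted p under 0.05), 0 members and 0 of the wider Polycomb list (Skp1 adjusted p = 0.0594). Over all genes, against 63, the calls numbered 19 with a pseudocount of 0.1, 0 with no filter (3323 at an unadjusted p under 0.05), 368 at 10 RPKM or more, 3707 with the columns as deposited, 12 with median ratio scaling, 24 with quantile normalization, 16 with Trim21 left out, 36 with the exon length trend removed, 11 with a constant prior, 6 with limma voom and 0 to 279 with 1 library left out. Members called, against 0 of 9, were 1 of 8 at 10 RPKM or more (10.6% of all genes), 5 of 9 as deposited (37.3% of all genes) and 0 to 2 with 1 library left out (2 without control replicate 2, where 2.8% of all genes were called). Of the wider list, against 1 of 40 tested (Skp1), 11 of 40 were called as deposited, where 37.3% of all genes were called. The wider list gave 0 to 1 call with 1 library left out, and 0 with no filter, each other scaling, the length trend removed or a constant prior. The members' median log2 fold change was -0.073 with the length trend removed and -0.069 to -0.061 with the other scalings. With median ratio scaling, quantile normalization and Trim21 left out, in that order, the log2 fold changes that turned were those of Eed (-0.069, -0.061, -0.065), Jarid2 (-0.088, -0.060, -0.083), Bmi1 (-0.053, -0.095, -0.049), Ezh1 (-0.13, -0.12, -0.13) and Usp16 (-0.15, -0.12, -0.14). Rbbp7 turned with the first and the last of these (-0.11, -0.10), and Pcgf3 (-0.030) and Gab1 (-0.12) with quantile normalization. With the length trend removed Eed (-0.096), Bmi1 (-0.073), Rbbp7 (-0.19) and Phf1 (-0.045) turned, and as deposited Ezh1 (-0.22), Pcgf3 (-0.048) and Ezhip (0.073). With 1 library left out, log2 fold changes ran between -0.11 and 0.25 for Jarid2, -0.097 and 0.28 for Ezh1, -0.51 and 0.11 for Ezhip, -0.16 and 0.33 for Pcgf3, -0.017 and 0.087 for Usp16, and -0.89 and 0.33 for Gata4. The cause was not tested for any of these. With 3 libraries a group, and control columns recovered by subtraction, the precision is limited, and genes near 0 such as Ring1 cannot be compared.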
